A study of Homo sapiens with 12 samples.

Results

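The genes described here encode death receptors, the TWEAK receptor, the lymphotoxin receptor, and the adaptor and initiator caspase that such receptors engage. They are TNFRSF10A, TNFRSF10B, TNFRSF10D, FAS, TNFRSF1A, TNFRSF21, TNFRSF12A, LTBR, FADD and CASP8. Members were chosen as every probe set whose platform gene symbol is one of these 10 names, which gave 26 probe sets for 10 of the 19775 genes named on the array. RNA was measured on Affymetrix Human Genome U133 Plus 2.0 arrays, 3 per group. HCT116, a human colorectal cancer line that carries an oncogenic RAS allele, was represented by control cells given vehicle and by control cells given 25 ng/ml doxycycline, both collected on day 3. Hke3 and Hkh-2 are isogenic lines made from HCT116 by homologous recombination at that allele, each derived from a single clone, and were cultured in basal condition. Whether the control arrays are of parental HCT116 is not settled by the labels or the methods, so differences below are from the vehicle-treated control arrays. A difference between lines cannot be told apart from a difference between clones. Labels of the Hke3 and Hkh-2 arrays name no vehicle or day. A difference from HCT116 therefore cannot be told apart from one in culture handling either.

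Death receptors are cell surface proteins of the tumour necrosis factor (TNF) receptor family with a cytoplasmic death domain. When a ligand such as TRAIL or Fas ligand clusters its receptor, the adaptor FADD is recruited and brings in caspase 8, which is activated by proximity and cleaves executioner caspases, while the caspase 8 homologue FLIP, the product of CFLAR, blocks that step. Other receptors of the family, among them the TWEAK receptor and the lymphotoxin beta receptor, lack a death domain and signal through TRAF adaptors, mainly to NF-kB. Colorectal cancer lines commonly express TRAIL receptors, and HCT116 has long been used to study killing through them.

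TNFRSF21 and CASP8 had the largest differences from Hke3 among the members, so the bases before their transcription starts are shown, from RefSeq on GRCh38.p14 and written 5′ to 3′ in the direction of the gene. From the RefSeq table, 10 windows for 6 of the members were used. FAS and CASP8 had 3 each, and TNFRSF1A, TNFRSF21, LTBR and FADD had 1 each. The other members were not searched, so this count does not say which genes have an annotated start. Each window ran from 250 bases before an annotated start to 50 after it. After the sequences had been seen, 6 motifs and another form of one were searched on both strands of the windows. Capitals mark a match to any of the 6 within the 250 bases shown.
TNFRSF21, chr6:47309906-47310155, minus strand: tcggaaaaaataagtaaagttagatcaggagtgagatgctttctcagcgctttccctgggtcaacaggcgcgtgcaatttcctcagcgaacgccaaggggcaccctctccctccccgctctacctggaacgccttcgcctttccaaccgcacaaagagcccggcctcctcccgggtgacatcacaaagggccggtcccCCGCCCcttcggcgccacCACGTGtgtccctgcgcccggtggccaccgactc
CASP8 first start, chr2:201233213-201233462, plus strand: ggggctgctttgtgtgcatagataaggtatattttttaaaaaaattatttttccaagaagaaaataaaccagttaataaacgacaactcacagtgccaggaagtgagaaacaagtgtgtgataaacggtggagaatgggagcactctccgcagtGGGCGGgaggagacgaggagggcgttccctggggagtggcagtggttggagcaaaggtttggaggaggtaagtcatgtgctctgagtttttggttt
CASP8 last start, chr2:201260286-201260535, plus strand: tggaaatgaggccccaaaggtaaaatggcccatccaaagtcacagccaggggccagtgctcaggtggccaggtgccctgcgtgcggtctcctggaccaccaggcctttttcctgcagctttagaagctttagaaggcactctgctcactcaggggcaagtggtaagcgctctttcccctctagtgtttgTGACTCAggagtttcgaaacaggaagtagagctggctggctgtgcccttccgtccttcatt

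The TNFRSF21 window held an E-box, CACGTG, with its first base at position -34 from the start, and a GC box, GGGCGG, at -52. The first CASP8 window held a GC box at -96, and the last held an AP-1 motif, TGANTCA, at -61. The second CASP8 window, not shown, held an AP-1 motif at -1. Of all 35116 windows, 7.26% held the E-box, 45% the GC box and 7.71% the AP-1 motif. The TEAD motif GGAATG, found in 14% of all windows, and the CRE core TGACG, found in 24.6%, had no match in the 10 windows used. Of the 10 windows used, only the last FAS window matched the NF-kB site, which was found in 11.3% of all windows. Another NF-kB pattern, tried first and found in 25.6% of all windows, matched the TNFRSF21 window and the first FAS and CASP8 windows, so the matches turn on the pattern. Matches of different motifs may overlap, and a match describes the letters only.

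Values are log2 RMA signals, in which probes of a set are combined after background correction and normalization between arrays, and a difference of 1 is a doubling. The median of an array lay between 5.80 and 5.86, and arrays of a group correlated with r between 0.993 and 0.998. The arrays farthest from their own groups were replicate 2 of HCT116 control vehicle and replicate 3 of Hke3, with root mean square deviations of 0.179 and 0.198 against 0.0805 to 0.124 for the other arrays. BioC, a hybridization control, read 8.57 in vehicle replicate 2 and 9.68 to 10.35 in all other arrays. The 5′ minus 3′ signal of actin, a sign of RNA quality, moved with the groups, and its part in the results was not tested. Its ranges were -0.85 to -0.48 (vehicle), -0.94 to -0.71 (doxycycline), -0.58 to -0.23 (Hke3) and -0.32 to -0.23 (Hkh-2). The same signal of GAPDH lay between -0.03 and 0.11 over all arrays. Of 8 epithelial and colon markers, 7 had a group mean of 6 or more (LGALS4 did not), as had 3 of 6 fibroblast markers (COL1A1, COL3A1 and DCN), 1 of 4 measured immune markers (CD3E) and 2 of 4 endothelial markers (PECAM1 and VWF). Summed over each list, the epithelial markers ranged from 82.35 to 82.64 (vehicle), 82.27 to 82.56 (doxycycline), 82.27 to 83.84 (Hke3) and 85.12 to 85.69 (Hkh-2), and the fibroblast markers from 32.19 to 32.53, 32.20 to 33.50, 31.86 to 32.78 and 34.40 to 35.18. The immune sums ranged from 19.00 to 19.81, 18.92 to 19.81, 18.72 to 19.76 and 19.50 to 19.92, and the endothelial sums from 20.37 to 20.92, 20.89 to 21.00, 19.26 to 19.79 and 18.95 to 19.88. Of the markers that reached 6, COL1A1 had group means of 8.19 to 8.43, COL3A1 reached 6.73 in Hkh-2 and was under 6 elsewhere, DCN lay between 6.01 and 6.21 and CD3E between 6.04 and 6.18. PECAM1 lay between 6.56 and 6.86, and VWF was 6.35 in vehicle and 6.33 in doxycycline but under 6 in both lines. COL1A2, LUM, PDGFRB, PTPRC, CD14, LYZ, CDH5 and KDR had group means under 6 throughout.

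**Figure D1:**
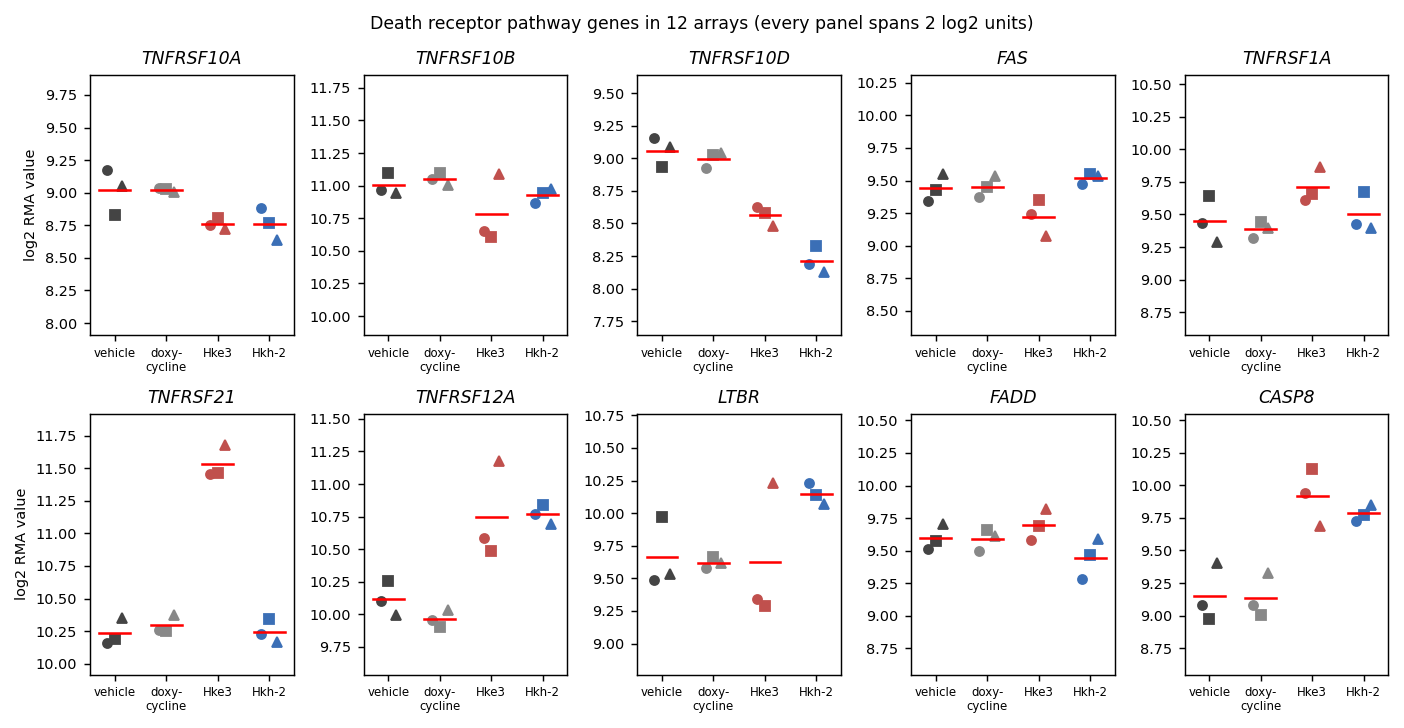
Log2 RMA value of the probe set with the highest mean for each of the 10 genes, 1 point per array (circle, square and triangle are replicates 1, 2 and 3) and a red line at the mean of each group. Every panel spans 2 log2 units. TNFRSF21 stands over 11.4 in the 3 Hke3 arrays and under 10.4 elsewhere, TNFRSF10D steps down from vehicle to Hke3 to Hkh-2, and TNFRSF12A and CASP8 lie higher in both recombined lines.

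Of the members, TNFRSF21, TNFRSF12A and CASP8 were lower in HCT116 than in Hke3, and TNFRSF10A, TNFRSF10D and FAS were higher, at an adjusted p under 0.05 in limma. Against Hkh-2, TNFRSF12A and CASP8 were lower, and TNFRSF10A and TNFRSF10D were higher. These shares lay near those of all 12852 genes tested. Against Hke3, 3 of 10 members were higher and 3 were lower, beside 24.6% and 23.2% of all genes. Against Hkh-2, 2 were higher and 2 lower, beside 14.3% and 21.7%. The median difference over the members was -0.03 in both comparisons, beside 0.04 and -0.02 over all genes. Both comparisons use the same vehicle arrays, so their calls are not independent. As a description, 2 members were higher against both lines and 2 lower, beside 9.04% and 12.6% of all genes. In bulk RNA, fewer cells of a type and less RNA per cell cannot be told apart.

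**Figure D2:**
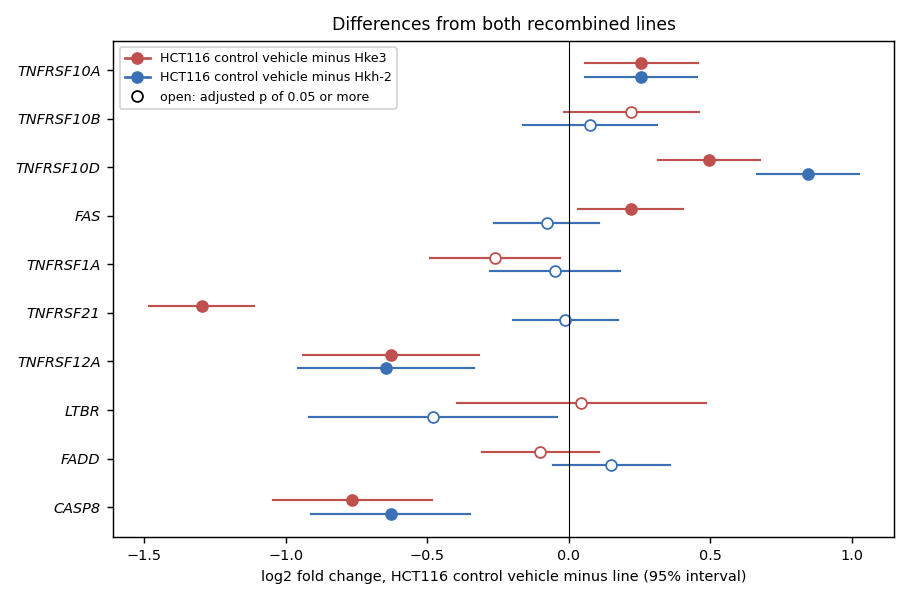
Log2 fold change of each gene in HCT116 control vehicle minus Hke3 (red) and minus Hkh-2 (blue), with 95% intervals from the limma fit. Filled points have an adjusted p under 0.05. TNFRSF21 lies at -1.30 against Hke3 and -0.01 against Hkh-2, and no other gene of the set differs by over 1 log2 unit from either line.

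TNFRSF10A encodes TRAIL receptor 1, or DR4, which carries a death domain. Its values were 9.18, 8.83 and 9.05 in vehicle, 9.03, 9.03 and 9.00 in doxycycline, 8.76, 8.81 and 8.72 in Hke3 and 8.88, 8.77 and 8.64 in Hkh-2 arrays. Each vehicle array was above each Hke3 array, narrowly for vehicle replicate 2, whereas vehicle replicate 2 fell below the highest Hkh-2 array. HCT116 was higher by 0.26 against Hke3 (SE 0.0918, limma adjusted p = 0.0348, n = 3 arrays a group) and by 0.26 against Hkh-2 (limma adjusted p = 0.0444). These calls held in 15 of 25 and 11 of 25 alternative settings. The differences became 0.08 and 0.06, with limma adjusted p of 0.316 and 0.528, when the probe sets of the gene were averaged. The other probe sets of TNFRSF10A gave group means of 8.30, 8.22, 8.19 and 8.41, and of 8.06, 8.13, 8.18 and 8.03, in vehicle, doxycycline, Hke3 and Hkh-2, neither of which had both lines below HCT116.

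TNFRSF10B encodes TRAIL receptor 2, or DR5, the other TRAIL receptor with a complete death domain. Its values were 10.97, 11.10 and 10.95 in vehicle, 11.05, 11.10 and 11.00 in doxycycline, 10.65, 10.61 and 11.09 in Hke3 and 10.87, 10.94 and 10.98 in Hkh-2 arrays. Hke3 replicates 1 and 2 were the lowest of the 12 arrays, and Hke3 replicate 3 lay among the HCT116 arrays. The difference from Hke3 was 0.22 (SE 0.110, limma adjusted p = 0.114) and that from Hkh-2 was 0.08 (95% interval -0.16 to 0.31, limma adjusted p = 0.637), neither past the threshold. Without Hke3 replicate 3, the array that stood apart, HCT116 was higher than Hke3 by 0.38 (limma adjusted p = 0.00108). Hke3 was then lower than Hkh-2 by a difference of -0.30 (limma adjusted p = 0.00506). Here and below, that array was singled out after its deviation had been seen, and 2 Hke3 arrays remained. The fit without it used only the brightest probe set. Further TNFRSF10B probe sets that passed the filter differed from Hke3 by 0.10 and 0.19 with all arrays. Neither was called (limma adjusted p = 0.388 and 0.170 in the fit over all probe sets). On the first of them Hke3 replicate 1 read 8.68, above vehicle replicates 1 and 3 at 8.53 and 8.66.

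TNFRSF10D encodes TRAIL receptor 4, a decoy with a truncated death domain that binds TRAIL without passing on the death signal. Its values were 9.16, 8.93 and 9.09 in vehicle, 8.92, 9.02 and 9.04 in doxycycline, 8.63, 8.58 and 8.48 in Hke3 and 8.19, 8.32 and 8.13 in Hkh-2 arrays. The lines formed 3 levels with no overlap between them, HCT116 highest and Hkh-2 lowest. HCT116 was higher by 0.49 against Hke3 (SE 0.0833, limma adjusted p = 0.000348) and by 0.85 against Hkh-2 (limma adjusted p = 4.35e-06), a linear fold of 1.80. Hke3 was higher than Hkh-2 by 0.35 (limma adjusted p = 0.00488), and all of these calls held in every alternative setting in which the gene was measured. The other probe set of the gene ran in the same order, with means of 6.84, 6.80, 6.33 and 6.14 in vehicle, doxycycline, Hke3 and Hkh-2. Its vehicle arrays read 6.76, 6.79 and 6.97, its Hke3 arrays 6.27, 6.39 and 6.35 and its Hkh-2 arrays 6.13, 6.04 and 6.25. In the fit over all probe sets, that probe set differed from both lines (limma adjusted p = 0.00619 and 0.000906), but its step of 0.19 between the lines was not past the threshold (limma adjusted p = 0.264). The step between the lines thus rests on the brighter probe set. TNFRSF10C, the neighbouring gene for the membrane-anchored decoy TRAIL receptor 3, was higher in HCT116 than in Hke3 by 0.33 (limma adjusted p = 0.00922) and had a difference of 0.07 from Hkh-2 (limma adjusted p = 0.613), at a mean of 6.42 in vehicle arrays, close to the filter. With its probe sets averaged, the difference from Hke3 was 0.21 (limma adjusted p = 0.0419).

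FAS encodes the receptor of Fas ligand, also called CD95. Its values were 9.34, 9.43 and 9.55 in vehicle, 9.37, 9.45 and 9.54 in doxycycline, 9.24, 9.35 and 9.07 in Hke3 and 9.47, 9.55 and 9.53 in Hkh-2 arrays. Hke3 held the lowest values, and the highest Hke3 array was just above the lowest vehicle array. HCT116 was higher than Hke3 by 0.22 (SE 0.0857, limma adjusted p = 0.0499), a call that held in 6 of 24 alternative settings, and differed from Hkh-2 by -0.08 (95% interval -0.26 to 0.11, limma adjusted p = 0.52). Hke3 was lower than Hkh-2, with a difference of -0.30 (limma adjusted p = 0.0145), in 21 of 22 settings. That call was lost without Hkh-2 replicate 2, where the difference was -0.28 with a limma adjusted p of 0.0521. The 3 further FAS probe sets gave -0.16, -0.24 and -0.20 for Hke3 minus Hkh-2 (limma adjusted p = 0.254, 0.0631 and 0.164), none of them called, and with all probe sets averaged the difference was -0.21 and called (limma adjusted p = 0.0327). In the fit over all probe sets, 2 further FAS probe sets differed from Hke3 by 0.36 and 0.33 (limma adjusted p = 0.00775 and 0.0218), and another differed by 0.10 (limma adjusted p = 0.471). All 4 FAS probe sets that passed the filter had a lower mean in Hke3 than in the other 3 groups.

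TNFRSF1A encodes TNF receptor 1, which carries a death domain and signals mainly to NF-kB, with cell death as a second outcome. Its values were 9.43, 9.64 and 9.29 in vehicle, 9.32, 9.44 and 9.40 in doxycycline, 9.61, 9.66 and 9.86 in Hke3 and 9.43, 9.68 and 9.40 in Hkh-2 arrays. Vehicle, Hke3 and Hkh-2 arrays overlapped. The difference from Hke3 was -0.26 (SE 0.106, limma adjusted p = 0.0603) and that from Hkh-2 was -0.05 (95% interval -0.28 to 0.18, limma adjusted p = 0.756). The first passed the threshold in 5 of 24 settings, among them with the doxycycline arrays as control, where it was -0.33 (limma adjusted p = 0.0242), and without vehicle replicate 2, where it was -0.35 (limma adjusted p = 0.0167). The array had 1 probe set for this gene.

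TNFRSF21 encodes death receptor 6, a death domain receptor best known from neurons and T cells. Its values were 10.16, 10.19 and 10.35 in vehicle, 10.26, 10.25 and 10.37 in doxycycline, 11.46, 11.46 and 11.68 in Hke3 and 10.23, 10.35 and 10.16 in Hkh-2 arrays. The Hke3 arrays stood over 1 log2 unit above all others, and the other 3 groups overlapped. HCT116 was lower than Hke3, with a difference of -1.30 (SE 0.0863, limma adjusted p = 9.51e-08), a linear fold of 2.46. The difference from Hkh-2 was -0.01, with a 95% interval of -0.20 to 0.17 (limma adjusted p = 0.931). Hke3 was higher than Hkh-2 by 1.29 (limma adjusted p = 1.42e-07), so the recombined lines differed from each other. Across all alternatives the difference from Hke3 ranged from -1.36 to -1.21. The second probe set of the gene gave the same picture, with means of 8.77, 8.67, 10.01 and 8.71 in vehicle, doxycycline, Hke3 and Hkh-2. Its Hke3 arrays read 9.87, 10.03 and 10.14, and the highest array of any other group, vehicle replicate 2, read 8.92. The promoter window printed above is the only start that the RefSeq table gave for this gene.

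TNFRSF12A encodes the TWEAK receptor, also called Fn14, a small receptor without a death domain that is known to rise in injured and growing tissue. Its values were 10.11, 10.26 and 10.00 in vehicle, 9.96, 9.90 and 10.04 in doxycycline, 10.59, 10.48 and 11.18 in Hke3 and 10.77, 10.84 and 10.70 in Hkh-2 arrays. Every array of a recombined line was above every HCT116 array. HCT116 was lower, with differences of -0.63 against Hke3 (SE 0.144, limma adjusted p = 0.00306) and -0.65 against Hkh-2 (limma adjusted p = 0.00338), linear folds of 1.55 and 1.57. Both calls held in all 24 settings. Hke3 replicate 3 was the highest array of all, and without it the difference from Hke3 was -0.42 (limma adjusted p = 0.00181) and that of Hke3 from Hkh-2 went from -0.02 (limma adjusted p = 0.936) to -0.23 (limma adjusted p = 0.0469). The size of the difference from Hke3 was thus over 1.5 times larger with that array than without it. The array had 1 probe set for this gene, so no other probe set could be set beside it.

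LTBR encodes the lymphotoxin beta receptor, which signals through TRAF adaptors to both arms of NF-kB. Its values were 9.49, 9.97 and 9.54 in vehicle, 9.58, 9.66 and 9.62 in doxycycline, 9.34, 9.29 and 10.23 in Hke3 and 10.23, 10.14 and 10.07 in Hkh-2 arrays. Hke3 was split, with replicates 1 and 2 the lowest of the 12 arrays and replicate 3 level with the highest Hkh-2 array. All Hkh-2 arrays were above all HCT116 arrays. With all arrays no difference passed the threshold, at 0.04 from Hke3 (limma adjusted p = 0.873), -0.48 from Hkh-2 (limma adjusted p = 0.0825) and -0.53 for Hke3 minus Hkh-2 (limma adjusted p = 0.0557). Without Hke3 replicate 3 these became 0.35 (limma adjusted p = 0.0274), -0.48 (limma adjusted p = 0.0036) and -0.83 (limma adjusted p = 0.000148), so the difference from Hke3 turns on that array. With Hke3 replicate 3 kept, Hkh-2 still passed in some settings, among them without vehicle replicate 2, where HCT116 minus Hkh-2 was -0.63 (limma adjusted p = 0.0344) and Hke3 minus Hkh-2 was -0.53 (limma adjusted p = 0.0400), and with vehicle and doxycycline arrays pooled, where HCT116 minus Hkh-2 was -0.50 (limma adjusted p = 0.0343). Without both arrays that stood apart, the difference from Hke3 was 0.20 (limma adjusted p = 0.0341). Both dimmer probe sets of the gene had a higher mean in HCT116 than in Hkh-2, by 0.14 and 0.22, against the direction of the brightest one (limma adjusted p = 0.408 and 0.191). Both dimmer ones were higher in HCT116 than in Hke3, by 0.34 and 0.33 (limma adjusted p = 0.0347 and 0.0431 in the fit over all probe sets).

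**Figure D3:**
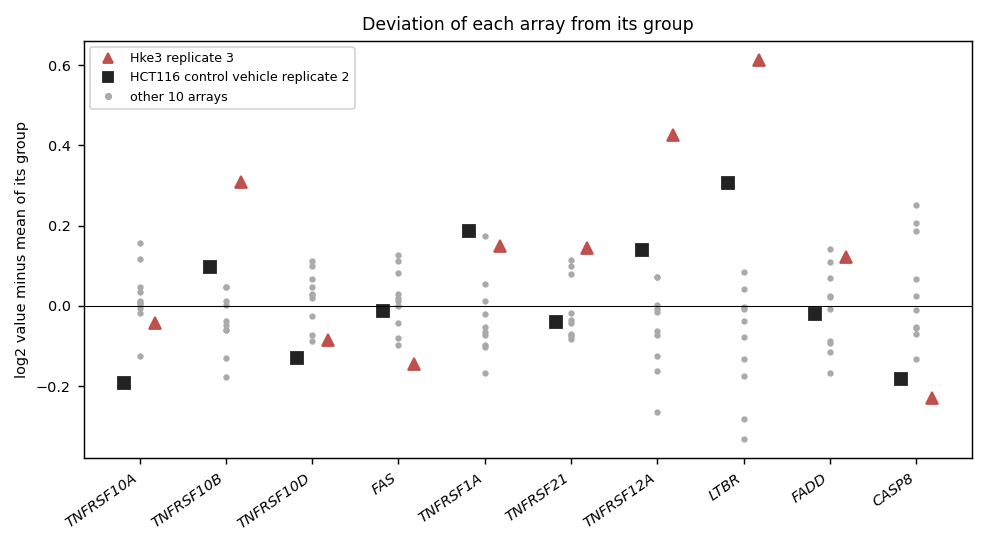
Log2 value of each array minus the mean of its group, for the probe set that represents each gene. Red triangles are Hke3 replicate 3, black squares HCT116 control vehicle replicate 2 and grey points the other 10 arrays. Hke3 replicate 3 lies farthest above its group for LTBR, TNFRSF12A and TNFRSF10B, and vehicle replicate 2 lies above its group for LTBR.

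FADD encodes the adaptor that links FAS and the TRAIL receptors to caspase 8. Its values were 9.51, 9.58 and 9.71 in vehicle, 9.50, 9.66 and 9.61 in doxycycline, 9.58, 9.69 and 9.82 in Hke3 and 9.28, 9.47 and 9.59 in Hkh-2 arrays. The groups overlapped. Its difference was -0.10 from Hke3 (95% interval -0.31 to 0.11, limma adjusted p = 0.405) and 0.15 from Hkh-2 (95% interval -0.06 to 0.36, limma adjusted p = 0.246). Hke3 minus Hkh-2 was 0.25 (limma adjusted p = 0.0522), which passed in 6 of 23 settings.

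CASP8 encodes caspase 8, the initiator caspase of this route. Its values were 9.09, 8.97 and 9.41 in vehicle, 9.09, 9.01 and 9.32 in doxycycline, 9.94, 10.12 and 9.69 in Hke3 and 9.73, 9.77 and 9.85 in Hkh-2 arrays. Every array of a recombined line was above every HCT116 array. HCT116 was lower, with differences of -0.76 against Hke3 (SE 0.130, limma adjusted p = 0.000384) and -0.63 against Hkh-2 (limma adjusted p = 0.00206), linear folds of 1.70 and 1.55. The recombined lines differed by 0.13 (95% interval -0.15 to 0.42, limma adjusted p = 0.445). The calls against both lines held in all 24 settings, and the difference from Hkh-2 was smallest with the probe sets averaged, at -0.41 (limma adjusted p = 0.00352). A second probe set had means of 7.42, 7.33, 8.32 and 7.98 in vehicle, doxycycline, Hke3 and Hkh-2 and was lower in HCT116 by differences of -0.90 and -0.56 (limma adjusted p = 0.00045 and 0.0123 in the fit over all probe sets). In its arrays it read 7.38, 7.22 and 7.66 in vehicle, 8.46, 8.43 and 8.09 in Hke3 and 7.95, 8.01 and 7.99 in Hkh-2. The vehicle arrays thus lay below those of both lines there too. Another probe set lay under 4 in every group. The start to which the measured transcripts belong was not resolved by these probe sets, so the windows printed above cannot be tied to a value.

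**Figure D4:**
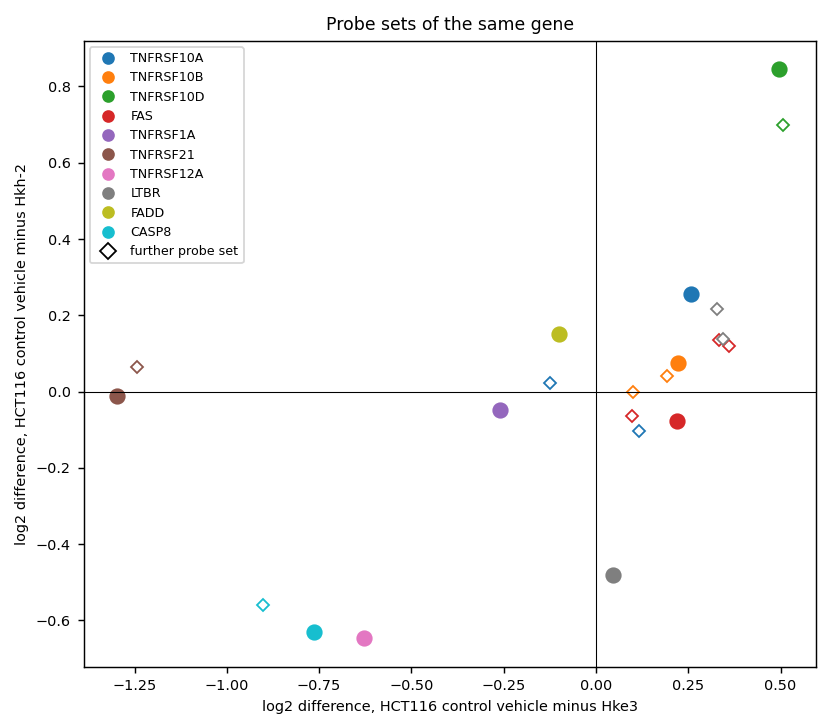
Log2 difference of HCT116 control vehicle minus Hke3 (horizontal) and minus Hkh-2 (vertical) for the 22 probe sets of the 10 genes that passed the filter. Filled circles are the probe sets that represent a gene and open diamonds the further ones. The probe sets of TNFRSF21, TNFRSF10D and CASP8 lie close to each other, those of TNFRSF10A and LTBR do not.

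In control cells, 25 ng/ml doxycycline changed none of the members at this threshold. Differences from vehicle ranged from -0.16 for TNFRSF12A to 0.06 for TNFRSF21, 0 of 10 members were called higher and 0 lower in limma, beside 0% of all genes in each direction, and 0 members had an unadjusted p under 0.05, against 127 of all genes. The 95% interval for TNFRSF12A ran from -0.47 to 0.15. Between the recombined lines, TNFRSF10D and TNFRSF21 were higher in Hke3 and FAS was lower, that is 2 members higher, beside 16.3% of all genes, and 1 lower, beside 23.5%.

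Other genes of the pathway were taken from a list of 72, of which 65 were measured and 55 tested. Against Hke3, 12 of these 55 were higher in HCT116 and 16 were lower, and against Hkh-2, 3 were higher and 26 were lower, with medians of -0.14 and -0.25. Of all genes, 24.6% were higher and 23.2% lower against Hke3, and 14.3% and 21.7% against Hkh-2. The measured ligands were scarce. Of 7 ligands listed, 6 were measured, and TWEAK, the ligand of TNFRSF12A, was not among them. Of the 6 measured, only LTB, a subunit of the ligand of LTBR, passed the filter. It was lower in HCT116 than in Hke3 by a difference of -0.28 (limma adjusted p = 0.0492) and differed from Hkh-2 by 0.07 (limma adjusted p = 0.665). The call against Hke3 held in 8 of 23 settings and was lost with the probe sets averaged, at -0.13 (limma adjusted p = 0.147), and without Hke3 replicate 3, at -0.18 (limma adjusted p = 0.159). Messages of TNFSF10, FASLG and TNF, which encode TRAIL, Fas ligand and TNF, were under the filter in every group.

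Among 11 inhibitors of caspase 8 or of death signalling, 6 were lower and 0 higher in HCT116 against each line, with medians of -0.51 and -0.35, beside 23.2% and 21.7% of all genes lower and 24.6% and 14.3% higher. CFLAR, whose product FLIP blocks caspase 8, had means of 7.87 ± 0.10 in vehicle, 9.12 ± 0.09 in Hke3 and 8.73 ± 0.20 in Hkh-2 arrays (SD, n = 3). It was lower in HCT116 by differences of -1.24 (SE 0.0973, limma adjusted p = 4.28e-07) and -0.86 (limma adjusted p = 1.62e-05), linear folds of 2.37 and 1.81, and was higher in Hke3 than in Hkh-2 by 0.39 (limma adjusted p = 0.00688). CFLAR and CASP8 lie on the same chromosome arm, on either side of CASP10, and both were lower in HCT116. CASP10, chosen after its values were seen, differed by -0.16 (limma adjusted p = 0.14) and -0.27 (limma adjusted p = 0.025). With the probe sets averaged, the CFLAR differences from the lines were -0.67 and -0.49, both called, and that between the lines was 0.18, not called (limma adjusted p = 0.0778). CASP10 then differed by 0.05 and -0.03, neither called (limma adjusted p = 0.582 and 0.726). TNFAIP3, the deubiquitinase A20, and TNIP1, its binding partner, both brakes on NF-kB, were lower by differences of -0.76 and -0.69 against Hke3 and -0.60 and -0.88 against Hkh-2 (limma adjusted p between 0.000360 and 0.00275). With the probe sets averaged, TNIP1 differed by -0.23 from Hke3, not called (limma adjusted p = 0.096), and by -0.50 from Hkh-2 (limma adjusted p = 0.00309).

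Among 12 caspases and mitochondrial genes, 3 were higher and 3 lower against Hke3, beside 24.6% and 23.2% of all genes, and 1 was higher and 6 lower against Hkh-2, beside 14.3% and 21.7%. CASP6, an executioner caspase, was lower by differences of -1.04 and -0.74 (limma adjusted p = 1.86e-05 and 0.000426). DFFA, the inhibitor of the nuclease that cuts DNA in apoptosis, was higher by 0.66 and 0.75 (limma adjusted p = 8.11e-06 and 2.70e-06), the second falling to 0.37 with the probe sets averaged (limma adjusted p = 0.00127). Among 14 adaptors and kinases, 4 were higher and 3 lower against Hke3 and 1 was higher and 4 lower against Hkh-2, beside the same shares of all genes as for the caspases. DAXX, first described as a FAS-binding protein, was higher by 0.45 and 0.34 (limma adjusted p = 0.00795 and 0.0455), the second in 12 of 24 settings and not with the probe sets averaged, where it was 0.20 (limma adjusted p = 0.0958).

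Among 11 genes of the NF-kB arm, 2 were higher and 2 lower in HCT116 against Hke3, 0 were higher and 8 lower against Hkh-2, and 8 were lower in Hke3 than in Hkh-2. The shares of all genes are 24.6% and 23.2%, 14.3% and 21.7%, and 23.5% for lower in Hke3 than in Hkh-2. IKBKB, the kinase that marks the NF-kB inhibitor for destruction, was lower by differences of -1.11 against each line (limma adjusted p = 1.99e-06 and 2.26e-06). Among 6 other receptors, 3 were higher and 1 lower against Hke3, beside 24.6% and 23.2% of all genes, and 1 was higher and 2 lower against Hkh-2, beside 14.3% and 21.7%. EDAR, the receptor of ectodysplasin, was higher by 0.91 and 0.89 (limma adjusted p = 1.01e-05 and 1.67e-05). TNFRSF19, a receptor known as a WNT target, had a vehicle mean of 5.78, under the filter, and means of 7.51 and 8.12 in Hke3 and Hkh-2. With the vehicle mean counted as 6, it was lower by differences of -1.51 and -2.12 (limma adjusted p = 1.56e-06 and 1.02e-07 for the fitted values). With its probe sets averaged the differences were -0.84 and -1.15, both called.

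**Figure D5:**
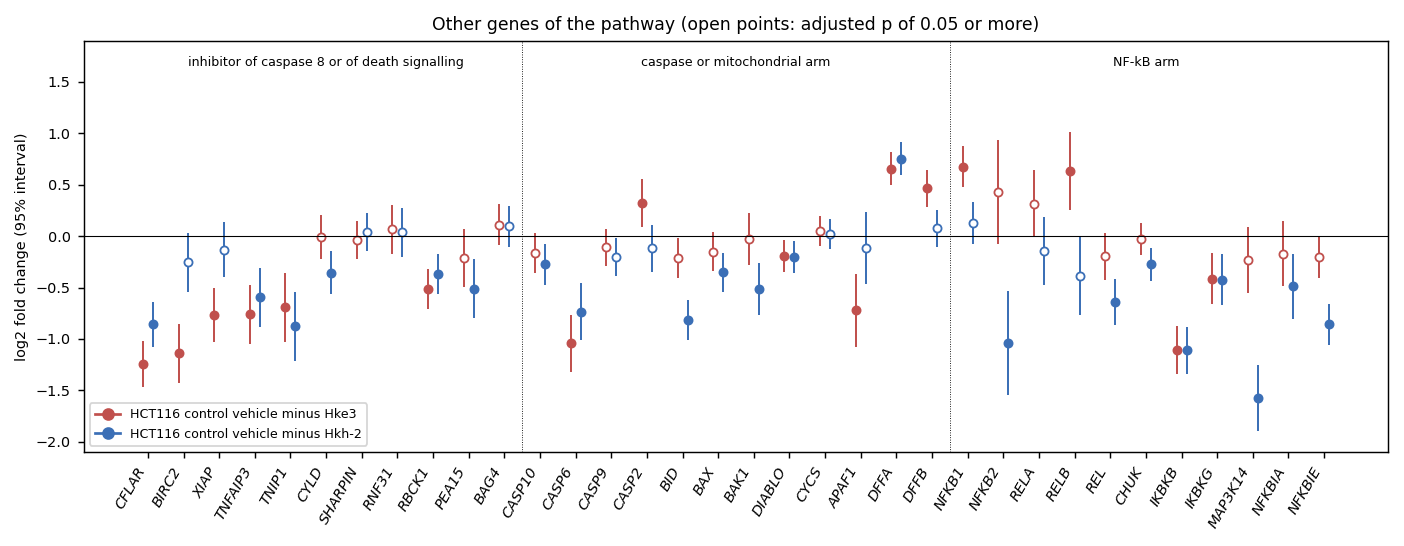
Log2 fold change of HCT116 control vehicle minus Hke3 (red) and minus Hkh-2 (blue), with 95% intervals, for the inhibitors, the caspase and mitochondrial genes and the NF-kB genes that were tested. Filled points have an adjusted p under 0.05. CFLAR, at -1.24 and -0.86, and IKBKB, at -1.11 and -1.11, lie well under 0 against both lines, and most NF-kB genes lie under 0 against Hkh-2.

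Genes with the most similar pattern were sought for the 3 members with the widest range of group means, by the root mean square difference of centred log2 values over the 12 arrays. For TNFRSF21, with a range of 1.30, the nearest were SERPINA1 at 0.115, PLCE1 at 0.118 and EXT1 at 0.123. EXT1, for example, had means of 8.43, 8.53, 9.94 and 8.68 in vehicle, doxycycline, Hke3 and Hkh-2. For TNFRSF10D, with a range of 0.85, they were HBE1 at 0.0801, ITCH at 0.0809 and FAN1 at 0.0820. For TNFRSF12A, with a range of 0.80, they were WNT7B at 0.0927, MICALL1 at 0.0997 and COPG1 at 0.106, and WNT7B had means of 7.30, 7.27, 7.93 and 8.01.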

How the data were processed

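RNA of HCT116 control cells with vehicle or doxycycline, Hke3 and Hkh-2 was measured on 12 arrays. The authors deposited log2 values per probe set, and the submitters' processing notes name RMA. Its version, the chip definition and the arrays normalized together are not given in the sources used here. Gene IDs matched 41043 of the 41097 single-symbol probe sets to RefSeq (GRCh38.p14). For each gene the brightest probe set on average was used, and the gene was kept where a group mean reached 6, which gave 12852 genes. limma 3.58.1 in R 4.3.3 estimated 4 group means, two-sided, with Benjamini-Hochberg adjustment over all genes kept. It was tested on simulated data. Members, lists and rules were chosen with earlier results of these data known. The genes named were all members, CFLAR, TNFRSF10C, the ligands kept, up to 6 list genes a direction called against both lines without overlap, and the 3 nearest in pattern. Fits were repeated with other probe set summaries, filters, normalizations, priors, blocks, controls and without each array. Arrays are not stated to be separate cultures, so p-values measure a spread that may be technical, and an exact test of 3 arrays against 3 cannot go below 0.1. Their number limits the precision. Deviations of same-numbered vehicle and doxycycline arrays correlated across genes with r of 0.228, 0.212 and 0.453. For vehicle and Hkh-2 these were -0.0459, 0.422 and 0.337, and for doxycycline and Hkh-2 they were 0.0762, 0.134 and 0.104. Each pairing of a group with Hke3 held negative values. Whether replicate numbers mark pairs was thus not settled. The recombined gene itself is not reported here.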

Additional observations from a re-analysis of the deposited data

Results flagged for a closer look

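TNFRSF21, TNFRSF10D and FAS differed between the recombined lines by a test of the difference itself, the contrast Hke3 minus Hkh-2 in limma. It was 1.29 for TNFRSF21 (adjusted p = 1.42e-07), 0.35 for TNFRSF10D (adjusted p = 0.00488) and -0.30 for FAS (adjusted p = 0.0145). For each, the 3 arrays of either line did not overlap, as for 6168 of all 12852 genes tested. The other TNFRSF10D probe set was not called between the lines (limma adjusted p = 0.264). Nor were the further FAS probe sets that passed the filter (limma adjusted p = 0.254, 0.0631 and 0.164). Groups of 3 arrays were not tested for single outlying samples.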

How the results depend on the processing

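For the members, 912 values kept their side of the threshold under the alternatives, 867 of them with the same sign and 45, none past the threshold in either fit, with the sign turned. A further 29 passed the threshold newly, 43 no longer passed it and 0 called values turned in direction. The 912 include values with little or no room to change, so their number is not a measure of stability. Counting group means under 6 as 6 was among the settings and cannot alter a member, as no representing probe set had such a mean. The comparison of doxycycline with vehicle is included too, and there 0 of all genes tested were called with all arrays. Without probe sets ending in _s_at or _x_at, 6 members were tested and 3 were called against Hke3, 2 against Hkh-2 and 2 against both, by construction of fewer genes. FAS and CASP8 then kept only probe sets under the filter, with group means of 5.26 to 5.62 and 3.67 to 3.87. TNFRSF1A and TNFRSF12A had no probe set left. Hke3 minus Hkh-2 gave 6 called members, against 3, without both arrays that stood apart and without Hke3 replicate 3. Leaving out an array gave 4 to 6 called members against Hke3, 3 to 5 against Hkh-2, 2 to 6 between the lines, 3 to 4 against both and 0 for doxycycline. The shares of all genes called in these alternative settings are not given here. The counts of called members per setting are therefore not a result about the members. DFFA, Hke3 minus Hkh-2, turned to -0.19 with the mean of probe sets, and the cause was not tested. With the replicate number as a block, FAS was not called against Hke3 (limma adjusted p = 0.0626), FADD was called between the lines (limma adjusted p = 0.0174), and no other member's call changed. Of the 12 arrays, 6 correlated best with an array of their own number. No normalization moved the median of all genes by over 0.1.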
